A study of Homo sapiens with 12 samples.

Results

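The authors' segmentation of K562 transcription holds 21874 transcriptional units, and 522 of them carry the class uaRNA (upstream antisense RNA) and lie outside the GENCODE annotation. These 522 units were taken by that deposited class and flag alone, and each was paired with the opposite-strand mRNA unit whose 5′ end is nearest to its own. They lie on 22 chromosomes, 263 on the plus and 259 on the minus strand, and are 131 to 319723 bp long with a median of 2145 bp. The pairing gave 509 distinct mRNA units, 331 of the 522 units had a partner with a gene symbol, and 25 units shared a partner with another.

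Most active human promoters fire in both directions: RNA polymerase II (Pol II) also starts on the opposite strand a short way upstream of the gene and makes an antisense RNA. Such RNAs are usually short and capped, end early at polyadenylation signals that lie unprotected by U1 snRNP sites, and are degraded in the nucleus by the RNA exosome. They are therefore scarce in steady-state RNA and are better seen in assays of newly made RNA.

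K562 is an established human leukaemia line grown in suspension. All RNA samples came from cells given 500 µM 4-thiouridine (4sU), a uridine analogue taken up into new RNA, for 5 min. The 4 RNA groups, 2 libraries each, differ in whether labelled RNA was purified and whether RNA was sheared by sonication: TT-Seq with both steps, shearing first; 4sU-Seq with purification alone; Total RNA-Frag-Seq with shearing alone; and Total RNA-Seq without either step. Chromatin immunoprecipitation (ChIP) after 7.5 min of crosslinking used an antibody against Pol II phosphorylated at serine 2 (S2P) or the antibody N-20 against Pol II (N20), 2 libraries each. The design text calls the RNA libraries biological duplicates. Nothing says so of the ChIP libraries, so their p-values measure a spread that may be technical.

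Binned counts summed to 25.9 to 71.3 M (mega-counts) per RNA library and 12.6 to 73.7 M per ChIP library, and the uaRNA units held little of them: 0.128% of all unit counts in TT-Seq, 0.119% in 4sU-Seq, 0.0709% in Total RNA-Frag-Seq and 0.0743% in Total RNA-Seq (means, n = 2). The median count of a unit was 54.5 and 57.0 in the TT-Seq libraries but 5 to 6 in the 4 total RNA libraries, where 58 to 76 units had a count of 0. The 2 S2P libraries stood apart from each other, with 0.436% and 0.582% of unit counts in these units against 0.841% and 0.838% in N20. The 10 listed erythroid markers of K562, read over the gene span on both strands, ranged from 2.26 to 62.9 CPM (counts per mega-count of the library) per kb in Total RNA-Seq, with the fetal globin gene HBG2 highest. Markers of other blood cells reached 2.87 (LYZ) and those of other tissues 27.4 (KRT18), with PECAM1 at 0.0495. In such bulk samples fewer cells of a type and less RNA per cell cannot be told apart.

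The positions of the units did not match the name of their class. A divergent unit starts upstream of the mRNA start and runs away from it. Only 99 of the 522 units (19%, 95% Wilson interval 15.8 to 22.6) were divergent within 1 kb of the 5′ end of an mRNA unit. A further 89 (17%) started within 1 kb on the inner side, so that unit and mRNA unit overlapped at their starts. Another 126 (24.1%) overlapped an opposite-strand mRNA unit farther in, and 208 (39.8%) lay apart from any. The partner's 5′ end was over 100 kb away for 133 units and up to 4.01 Mb away. The units just inside and just outside the 1 kb limit lay 990 and 1001 bp from the partner's 5′ end.

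Gene starts from RefSeq gave a similar picture: 128 of 509 units on the chromosomes covered (25.1%) were divergent within 1 kb of a protein-coding start. Of 87 units overlapping the start of an mRNA unit, 18 were divergent from the RefSeq start, since mRNA units can begin upstream of the annotated gene. The classes conRNA (convergent) and asRNA (antisense) outside GENCODE held 18.2% and 13.4% divergent units, and sincRNA (short intergenic) held 25%. The class label thus did not set the uaRNA units apart by position from the conRNA units. No source used here states the rule behind the label, and whether each label is attached to the right unit could not be settled from the files, which bears on the values given for every class. Of mRNA units on the chromosomes covered, 59.5% started within 1 kb of a RefSeq coding start. The 522 units are called units labelled uaRNA, and the 188 that start within 1 kb of their partner are described separately throughout.

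**Figure D1:**
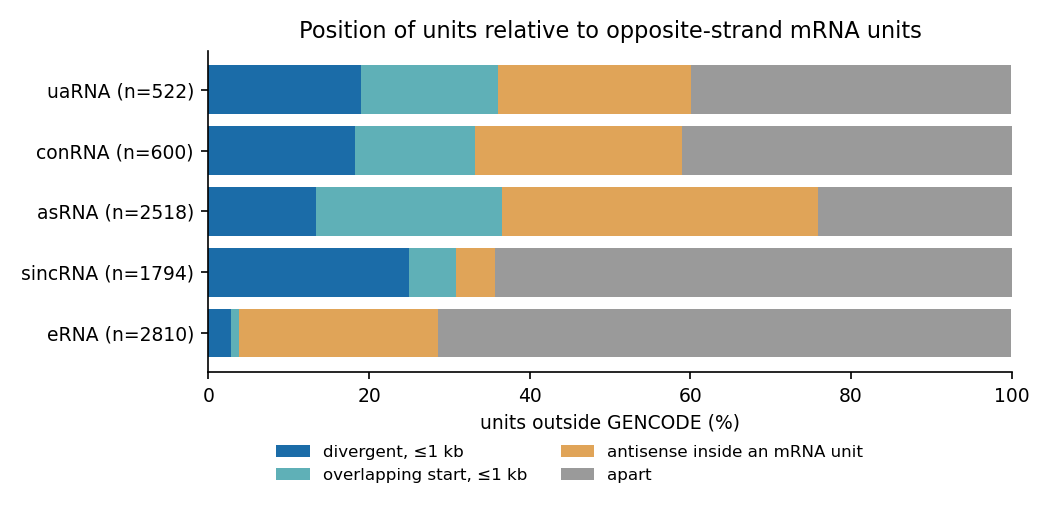
Share of units outside GENCODE (x axis, %) in each position relative to opposite-strand mRNA units, for 5 deposited classes (y axis, number of units in brackets). The uaRNA bar, with 19% divergent, resembles the conRNA bar with 18.2%, and the eRNA (enhancer RNA) bar is 71.4% apart.

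By definition the divergent units started within 1 kb of the mRNA start, and most lay well inside that limit. Their gap to the mRNA start had a median of 199 bp, with the middle 50% between 148 and 273 bp, and their median length was 1622 bp. The 6 upstream windows that follow show where the antisense RNA begins at the most abundant (per kb) and the most strongly changed units with a named partner. Each is the 250 bases before the RefSeq start of the partner gene (GRCh38.p14), read 5′ to 3′ on the strand of the antisense unit, away from the gene. Capitals mark the bases of the antisense unit itself.
SDHAF4: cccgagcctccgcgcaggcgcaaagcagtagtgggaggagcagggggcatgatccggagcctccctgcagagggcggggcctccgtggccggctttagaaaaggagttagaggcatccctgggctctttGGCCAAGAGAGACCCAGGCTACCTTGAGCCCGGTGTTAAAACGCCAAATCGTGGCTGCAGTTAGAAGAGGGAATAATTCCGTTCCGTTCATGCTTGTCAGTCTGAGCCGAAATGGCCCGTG
MXI1: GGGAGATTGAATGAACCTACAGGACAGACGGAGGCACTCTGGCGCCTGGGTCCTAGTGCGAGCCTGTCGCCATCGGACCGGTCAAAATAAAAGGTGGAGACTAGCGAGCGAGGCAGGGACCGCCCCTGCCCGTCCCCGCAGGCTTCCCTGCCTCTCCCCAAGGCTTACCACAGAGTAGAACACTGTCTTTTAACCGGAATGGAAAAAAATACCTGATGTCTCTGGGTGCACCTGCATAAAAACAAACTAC
TP53BP2: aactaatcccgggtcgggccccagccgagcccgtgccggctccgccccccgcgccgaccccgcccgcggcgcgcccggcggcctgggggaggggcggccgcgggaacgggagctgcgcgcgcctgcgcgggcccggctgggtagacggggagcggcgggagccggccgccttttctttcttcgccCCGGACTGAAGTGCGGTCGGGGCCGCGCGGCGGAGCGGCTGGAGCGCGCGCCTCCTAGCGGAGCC
ALG1: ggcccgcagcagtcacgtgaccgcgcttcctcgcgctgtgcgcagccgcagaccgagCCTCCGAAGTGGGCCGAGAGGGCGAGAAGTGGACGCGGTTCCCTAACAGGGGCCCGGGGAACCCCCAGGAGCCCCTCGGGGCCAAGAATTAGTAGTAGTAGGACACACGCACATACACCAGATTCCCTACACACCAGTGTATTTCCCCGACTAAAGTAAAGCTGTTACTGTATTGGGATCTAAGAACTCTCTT
CYB5R3: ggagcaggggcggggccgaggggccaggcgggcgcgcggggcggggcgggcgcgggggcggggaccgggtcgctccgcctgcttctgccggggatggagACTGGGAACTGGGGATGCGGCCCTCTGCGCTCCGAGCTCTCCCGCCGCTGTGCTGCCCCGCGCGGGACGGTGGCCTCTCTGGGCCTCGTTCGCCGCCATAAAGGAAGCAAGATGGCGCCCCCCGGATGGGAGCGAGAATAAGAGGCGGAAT
TMEM131: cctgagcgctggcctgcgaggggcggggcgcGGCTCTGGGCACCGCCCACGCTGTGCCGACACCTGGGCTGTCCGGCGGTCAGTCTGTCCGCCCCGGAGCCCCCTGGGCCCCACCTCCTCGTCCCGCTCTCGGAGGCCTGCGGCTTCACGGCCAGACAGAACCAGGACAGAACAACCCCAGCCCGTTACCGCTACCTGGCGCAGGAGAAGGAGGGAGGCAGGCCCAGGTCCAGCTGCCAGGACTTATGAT

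These windows are chr6:70566680-70566929 minus strand (SDHAF4, an assembly factor of succinate dehydrogenase), chr10:110207355-110207604 minus strand (MXI1, a MAX-binding repressor) and chr1:223845948-223846197 plus strand (TP53BP2, a p53-binding protein). The others are chr16:5071593-5071842 minus strand (ALG1, a mannosyltransferase of N-glycan assembly), chr22:42649393-42649642 plus strand (CYB5R3, cytochrome b5 reductase) and chr2:97995949-97996198 plus strand (TMEM131, a membrane protein). The unit starts 130 bases upstream of the SDHAF4 start, 186 upstream of TP53BP2, 58 upstream of ALG1, 100 upstream of CYB5R3 and 32 upstream of TMEM131. At MXI1 it starts 83 bases inside the gene, so the unit covers the whole window and every base is capitalised. These distances are to RefSeq starts. Relative to the partner mRNA units, those at MXI1, ALG1 and TMEM131 are not divergent but overlap the start, by 156, 276 and 165 bp. GC content of the windows ran from 55.6% at MXI1 to 81.2% at TP53BP2.

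Upstream windows beside these units were richer in GC and CpG than those of protein-coding starts at large. Over the 128 RefSeq coding starts with a divergent unit within 1 kb, median GC was 69.4% with 26 CpG per window, against 62.4% and 17 over 13831 protein-coding starts. GGGCGG, the GC box bound by SP1-type factors, was present on either strand in 84.4% of the 128 windows (Wilson 95% interval 77.1 to 89.7) and 56.0% of all. TATAAA was present on either strand in 3.91% (1.68 to 8.82) against 9.64%, and CCAAT in 34.4% (26.7 to 43.0) against 35.2%. On the antisense strand alone, AATAAA, the core of the polyadenylation signal, was found in 3.12% (1.22 to 7.76) against 5.99%, and GTAAGT, a strong 5′ splice site, in 3.12% (1.22 to 7.76) against 1.77%. The 5 motifs share no full copy of one another, and a match is a description of letters only. Over the 211 starts within 1 kb of a unit on either side, median GC was 66.8% and GGGCGG was present in 77.3%. The 13831 starts were not selected for activity in K562, so these differences cannot be read as particular to the units.

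In newly made RNA the units near a gene stood closer to the level of the neighbouring mRNA than in total RNA. Over the 188 units within 1 kb of their partner, the median level was 0.325 CPM per kb in TT-Seq, 0.267 in 4sU-Seq, 0.0824 in Total RNA-Frag-Seq and 0.111 in Total RNA-Seq. The paired mRNA units had medians of 1.02, 1.10, 1.32 and 1.22 CPM per kb in the same order, over exons and introns. The median ratio of unit to partner was therefore 0.337 in TT-Seq, 0.254 in 4sU-Seq, 0.0554 in Total RNA-Frag-Seq and 0.0795 in Total RNA-Seq. The unit exceeded its partner in 18 of 188 pairs in TT-Seq and in 3 in Total RNA-Frag-Seq. Over all 522 units the TT-Seq median was 0.326 CPM per kb; it was 0.324 for divergent units and 0.312 for those apart.

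**Figure D2:**
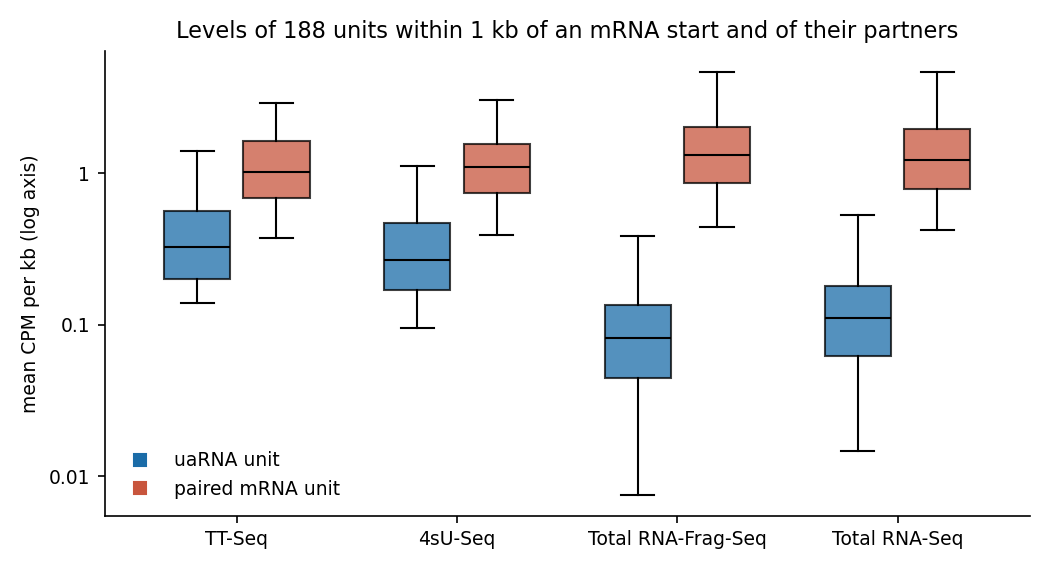
Mean CPM per kb (log axis) of the 188 units labelled uaRNA within 1 kb of an mRNA start and of their paired mRNA units, in each RNA group (n = 2 libraries a group). Boxes span the middle 50% of units with the median as a line, and whiskers reach the 5th and 95th percentiles; the unit medians fall from 0.325 in TT-Seq to 0.0824 in Total RNA-Frag-Seq while partner medians stay between 1.02 and 1.32.

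Per kb in TT-Seq, the most abundant named units lay beside SDHAF4 and MXI1. The unit upstream of SDHAF4 (chr6:70565847-70566800, minus strand, 954 bp) had the following CPM: TT-Seq 3.81 and 4.20, 4sU-Seq 2.82 and 3.41, Total RNA-Frag-Seq 0.820 and 0.908, Total RNA-Seq 1.13 and 1.26. Every purified library was above every total library. Per kb it averaged 4.00 CPM in TT-Seq, 3.68 times the level of its partner, the highest ratio among named pairs. The unit at MXI1 (chr10:110205979-110207688, minus strand, 1710 bp) had CPM values of TT-Seq 7.44 and 5.35, 4sU-Seq 3.58 and 4.05, Total RNA-Frag-Seq 1.28 and 0.908, Total RNA-Seq 1.21 and 1.49. Here TT-Seq was highest and the 2 total groups overlapped; the ratio to the partner was 2.94 in TT-Seq. NIPA2, which encodes a magnesium transporter, had the third highest ratio, 2.41. KRCC1 had 1.99 CPM per kb in TT-Seq against 0.845 for its mRNA unit.

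At the other end stood EGR1, an immediate-early transcription factor. Its mRNA unit had 21.6 CPM per kb in TT-Seq, and the antisense unit (chr5:138460661-138464978, minus strand) had 0.352, a ratio of 0.0163. The next lowest ratios were 0.0538 at CSNK2A1, a casein kinase 2 subunit, and 0.0696 at NAB1, a corepressor of EGR proteins. The unit at CSNK2A1 lies inside the gene start, and the opposite strand over its span held 9.70 times the unit's own TT-Seq counts.

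Around the 5′ end of the 99 divergent units, RNA on the unit's strand began at the unit and fell off within a few kb. The authors segmented the units from the TT-Seq libraries. Their TT-Seq start, fall and strand excess therefore follow in part from how the units were drawn, and are description only. With the highest unit left out of each bin, TT-Seq on the unit's strand peaked at 1.10 CPM per kb in the bin 200 to 400 bp downstream of the bin that holds the 5′ end. It averaged 0.649 over the first kb, 0.149 over the second and 0.0336 over the fifth, and 0.00772 over the kb before the start. Total RNA-Frag-Seq peaked at 0.254 in the same bin and fell 5.57-fold from the first to the fifth kb, compared with 19.3-fold in TT-Seq. On the opposite strand, which carries the gene, TT-Seq averaged 1.25 over the kb before the unit and 0.00796 over its first kb. In 98 of the 99 units the own strand held more TT-Seq counts than the other, with a median ratio of other to own of 0.0120. Over all 522 units labelled uaRNA this held in only 355, and in 32 the other strand held over 10 times as many. Around the divergent units, Pol II in N20 ChIP peaked at 23.9 CPM per kb in the bin before the unit's start, between the 2 starts for a typical gap. In S2P ChIP it peaked at 6.96, in the next bin towards the gene.

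**Figure D3:**
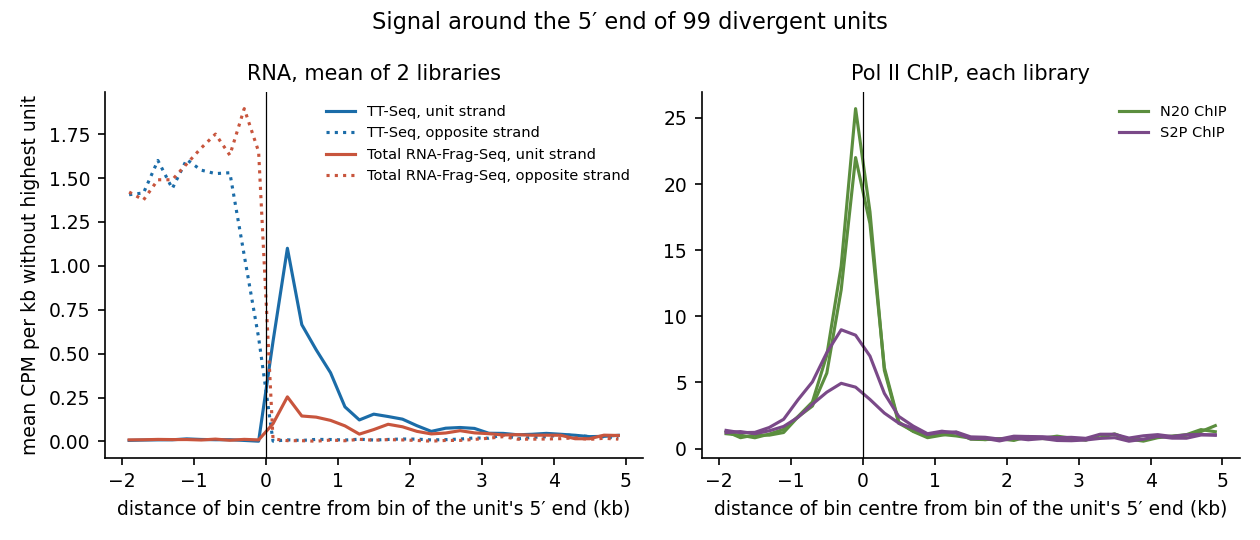
Mean CPM per kb in 200 bp bins around the 5′ end of the 99 divergent units (x axis, kb, positive downstream along the unit), without the highest unit in each bin. Left, RNA on the unit's strand (solid) and the opposite strand (dotted), mean of 2 libraries; right, each Pol II ChIP library. TT-Seq on the unit's strand, from which the units were segmented, peaks at 1.10 and Total RNA-Frag-Seq at 0.254.

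Units labelled uaRNA were higher after purification of labelled RNA. In sheared RNA, comparing TT-Seq with Total RNA-Frag-Seq, 342 of 425 tested units (80.5%) were higher in TT-Seq and 17 lower, at an edgeR adjusted p under 0.05, against 43.2% higher and 37.8% lower among 19331 tested units of all classes. The median log2 fold change was 1.84 (3.57-fold) against 0.09 over all tested units, and 306 units were at least 2-fold higher. The authors segmented the units from the TT-Seq libraries, which took part in choosing them, so this comparison is not independent of their choice. The filter on low counts left out 97 units. It can favour units seen only in the purified libraries. Over all 522 units both TT-Seq libraries exceeded both Total RNA-Frag-Seq libraries in 464, and the reverse held in 21. Such separation held, over all tested units, in 49.2% upward and 42.3% downward. Among the 199 that reached 0.261 CPM in both Total RNA-Frag-Seq libraries, 134 were called higher (67.3%), against 29.5% of the 15016 units of all classes so selected. The conRNA and asRNA units outside GENCODE had shares called higher of 78.0% and 82.5%, close to that of the uaRNA units. eRNA units had 86.3% and mRNA units 18%.

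Of the divergent units, 67 of 75 tested were higher in TT-Seq and 0 lower, with a median log2 fold change of 2.22. Units overlapping the start had 66 of 81 higher (median 1.80), those inside an mRNA unit 91 of 110 (1.74) and those apart 118 of 159 (1.80). Lower calls numbered 0 among units overlapping the start, 3 inside and 14 apart. The difference between position groups was not tested.

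**Figure D4:**
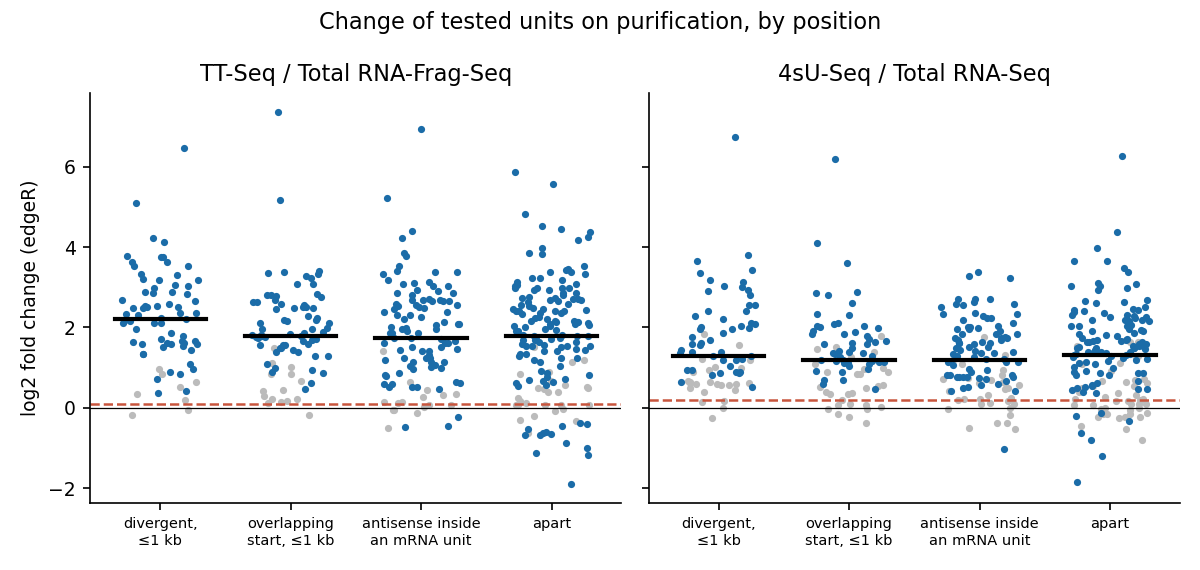
edgeR log2 fold change on purification (y axis) of the 425 tested units in 4 position groups (x axis), in sheared RNA (left) and unsheared RNA (right). Blue points passed an adjusted p of 0.05 and grey ones did not, black bars are group medians, and the dashed red line is the median of all tested units (0.09 left, 0.19 right); group medians lie between 1.74 and 2.22 on the left.

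By name, the largest fitted changes in sheared RNA were at units with almost no counts in total RNA. The unit at ALG1 (chr16:5071036-5071785, minus strand, 750 bp) had 33 and 34 counts in TT-Seq and 0 in both Total RNA-Frag-Seq libraries. With a floor of 3 counts over the group it was at least 9.40-fold higher (edgeR adjusted p = 5.5e-05). The unit upstream of CYB5R3 (chr22:42649492-42650368, plus strand, 877 bp) had 20 and 16 counts against 0 and 0, at least 5.05-fold higher (edgeR adjusted p = 0.000622). TMEM131 (chr2:97995980-97997931, plus strand) had 62 and 38 counts against 1 and 0, a ratio of 42.1 with a 95% counting interval of 7.38 to 1680. Intervals and floors cover counting error only. MCAT, a mitochondrial fatty acid synthesis enzyme, had 49 and 46 counts against 0 and 1, a ratio of 40.0 (7 to 1600). The partner unit at MCAT holds 2 named genes. In all 4 the TT-Seq libraries lay clear of the total ones. However, these units passed the low-count filter only through the purified libraries and were picked by the size of their change. Their separation and p-values are therefore no independent support.

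LBR, the lamin B receptor, TTLL12, KRCC1 and MAST2, a microtubule-associated kinase, completed the 8 largest changes, with count ratios of 21.9, 14.7, 13.9 and 14.3. These units too passed the low-count filter only through purified libraries and were picked by their change, so the changes are no independent support. For LBR the interval ran from 3.76 to 881 and for MAST2 from 2.40 to 581, since each had 1 count in total in Total RNA-Frag-Seq. KRCC1 was better covered, with 91 and 74 counts in TT-Seq against 1 and 4, and an interval of 5.83 to 43.3. Among units with more counts, NIPA2 rose by a log2 of 3.40 ± 0.27 (SE), MXI1 by 2.52 ± 0.22 and SDHAF4 by 2.22 ± 0.20. They were named for high TT-Seq levels, which favours a rise here. EGR1 rose by 1.74 ± 0.37, while NAB1 gave 0.20 ± 0.25 (edgeR adjusted p = 0.482). Fold change was smaller in longer units. Units up to 1675 bp had a median log2 fold change of 2.58, those up to 2867 bp 2.22, those up to 5645 bp 1.80, and longer ones 0.61. By mean CPM over the 8 libraries, the medians were 2.46 below 0.5, 1.80 from 0.5 to 1 and 1.14 above 1. The corresponding medians over all tested units were 2.33, 1.74 and -0.22.

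No unit within 1 kb of its partner was called lower in TT-Seq. The 17 lower units had a median length of 13254 bp against 2768 bp for the other tested units, and 15 were longer than 5 kb. Only 3 fell by 2-fold or more. The longest of all 522 units (chr1:189149775-189469497, plus strand, 319723 bp) had 164 and 162 CPM in TT-Seq against 214 and 233 in sheared total RNA, and its log2 fold change was -0.45 ± 0.06 (SE). Its nearest opposite-strand mRNA start is 2773547 bp away, and it alone held 14.1% to 28.1% of the counts of the 522 units in the RNA libraries. A unit on chromosome 11 (38234250 to 38337191, minus strand) had 61.2 and 58.8 CPM against 93.9 and 96.9, and fell by 0.67 on the log2 scale. The lowest value, -1.90 ± 0.36, came from a unit on chromosome 19 (2271860 to 2273519, minus strand) over which the opposite strand held 213 times its own counts. These 3 were singled out after their values were seen.

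Some units are annotated in RefSeq although they lie outside GENCODE as the authors flagged it: 35 were covered to at least 50% by a same-strand RefSeq gene, 30 of them long non-coding and 5 protein-coding. Of the 29 tested long non-coding ones, 19 were higher in TT-Seq and 2 lower, with a median log2 of 0.85, compared with 1.94 for tested units without such a gene. The longest named unit, 14628 bp at NOP56, a box C/D snoRNP core protein, coincides with LOC105372505. It had 8.88 and 9.03 CPM in TT-Seq against 4.25 and 4.07 in sheared total RNA, and its log2 fold change was 1.10 ± 0.14. A further 18 units began within 5 kb after the end of a same-strand mRNA unit.

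The units were also higher after purification of unsheared RNA, in libraries not named as a source of the segmentation. Comparing 4sU-Seq with Total RNA-Seq, 284 of 425 tested units (66.8%) were higher and 8 lower, against 40.2% higher and 28.2% lower of all tested units. The median log2 fold change was 1.26 (2.40-fold) against 0.19. Shares called higher among conRNA and asRNA units outside GENCODE were 66.8% and 66.6%, like that of the uaRNA units. In 413 of all 522 units both 4sU-Seq libraries exceeded both Total RNA-Seq libraries, and the reverse held in 20, against 51.5% and 33.8% of all tested units. Where both Total RNA-Seq libraries reached 0.261 CPM, 147 of 233 were higher (63.1%), against 32.3% of all units so selected. There were 269 units higher in both comparisons, 78.7% of those higher in sheared RNA and 94.7% of those higher in unsheared RNA. Over all 425 tested units, 66.8% were higher in unsheared and 80.5% in sheared RNA, so much of this overlap follows from these shares. The overlap over all classes was not counted. The count of 284 fell to 175 without Total RNA-Seq replicate 1, and to 186 with DESeq2.

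The largest change with a named partner was at FARSA, a subunit of phenylalanyl-tRNA synthetase. Its unit (chr19:12933838-12935494, plus strand) had 17 and 12 counts in 4sU-Seq and 0 in both Total RNA-Seq libraries, at least 4.89-fold higher (edgeR adjusted p = 0.00131); its partner unit holds 2 named genes. LARP4, an RNA-binding protein of poly(A) tails, had 10 and 17 counts against 1 and 0, a ratio of 13.7 (2.25 to 559). AOPEP, an aminopeptidase, had 14 and 10 against 0 and 1, a ratio of 12.1 (1.98 to 499). In these 3 the purified libraries lay clear of the total ones but the size of the change was poorly determined. They too passed the filter only through purified libraries and were picked by their change, so separation and p-value are no independent support. SDHAF4, MXI1 and NIPA2, with more counts, rose by log2 values of 1.38 ± 0.21, 1.50 ± 0.24 and 2.3 ± 0.29 (SE).

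The mRNA units beside them were called lower about as often as mRNA units in general. In the 156 tested pairs within 1 kb, the median log2 fold change of TT-Seq over Total RNA-Frag-Seq was 1.95 for the unit and -0.29 for the partner. The unit was called higher in 133 pairs, while the partner was called higher in 30 and lower in 90. Of all 7808 tested mRNA units, 18% were higher and 61.2% lower. In 77 pairs the unit was higher and the partner lower. The unit's fold change exceeded its partner's in 152 of 156. In unsheared RNA the medians were 1.24 and -0.21, with 101 units higher and 81 partners lower, and 49.5% of all tested mRNA units were lower.

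**Figure D5:**
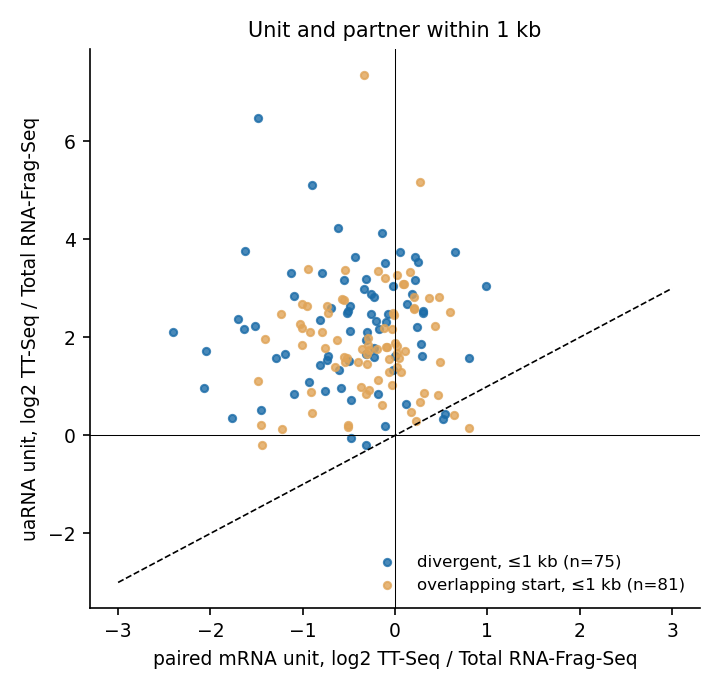
edgeR log2 fold change of TT-Seq over Total RNA-Frag-Seq of the unit (y axis) against that of its paired mRNA unit (x axis) for the 156 tested pairs within 1 kb. The dashed line marks equal change; 152 pairs lie above it.

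The test of the ratio itself used the per-library difference in log2 CPM between unit and partner. By limma, the ratio was higher in TT-Seq for 370 of 425 units and lower for 10, against 56.5% higher and 22.4% lower of 19327 pairs over all classes. Of conRNA and asRNA units outside GENCODE, 83.4% and 87.2% were higher, close to the 87.1% of the uaRNA units. Fitted on partners within 1 kb alone, the ratio was higher in 140 of 156 pairs and lower in 1. The median log2 change in that fit was 2.03 for these units against 1.33 over all classes, compared with 2.07 against 0.56 at all distances. The share called over all classes was not counted for that fit. For 4sU-Seq against Total RNA-Seq the ratio was higher for 305 (71.8%) and lower for 8, against 51% and 17.8%. Of conRNA and asRNA units outside GENCODE, 76.3% and 73.3% were higher. Within 1 kb alone it was higher for 112 of the uaRNA units and lower for 1, with a median log2 of 1.34 against 0.86 over all classes. DVL1, a Wnt pathway protein, is a picked example. Its unit (chr1:1349675-1350020, plus strand) had 0.704 and 0.640 CPM in TT-Seq against 0.121 and 0.197 in Total RNA-Frag-Seq. Its mRNA unit fell by 2.41 on the log2 scale, against a median of -0.29 for tested partners within 1 kb. The log2 ratio rose by 4.23 ± 0.36 (limma adjusted p = 2.73e-06). DVL1 was named for a low level in Total RNA-Frag-Seq, so this rise and p-value are no independent support. TP53BP2 was an exception. Its unit had 4.61 and 4.27 CPM against 3.95 and 2.53, and the ratio moved by -0.06 ± 0.20 (limma adjusted p = 0.806), as the mRNA unit rose by 0.54 too.

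Between the 2 purified groups, TT-Seq against 4sU-Seq, 65 of 425 units (15.3%) were higher and 25 (5.88%) lower, against 19.8% and 28.7% of all tested units, with a median log2 of 0.21. The count of 65 fell to 32, 39 and 33 without TT-Seq replicate 1, TT-Seq replicate 2 or 4sU-Seq replicate 1, and the 25 fell to 15 without TT-Seq replicate 1. Higher in TT-Seq were the units at MCAT (log2 0.98 ± 0.35), USP8, a deubiquitinase (0.96 ± 0.32), and NCS1, a neuronal calcium sensor (0.80 ± 0.26). Lower were those at AKT1, a kinase of insulin signalling (-0.88 ± 0.32), BCAR1, an adaptor of focal adhesions (-0.84 ± 0.17), and TP53BP2 (-0.78 ± 0.14). All were picked by the size of their change, so the changes and any separation of libraries are no independent support. MCAT reached 0.261 CPM in both libraries of a group only in TT-Seq, and AKT1 only in 4sU-Seq. The unit at BCAR1 had CPM of 3.52 and 4.72 under TT-Seq against 6.06 and 8.74 under 4sU-Seq, without overlap.

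Between the unpurified groups, 7 units were higher with shearing (Total RNA-Frag-Seq) and 13 lower, against 16.6% and 5.52% of all tested units; without TMM scaling it was 2 and 31. Here 141 tested units had under 10 counts in the Total RNA-Seq pair, so that smaller changes were not detectable at this depth. Of the 156 tested units within 1 kb of their partner, 6 were lower. Among the 6 were LBR and DVL1: LBR had 1 and 0 counts in Total RNA-Frag-Seq against 6 and 4, and DVL1 4 and 5 against 9 and 14. The 7 became 1 to 4 without Total RNA-Frag-Seq replicate 2, either Total RNA-Seq or either TT-Seq library. The 13 became 20 without 4sU-Seq replicate 2, 8 without Total RNA-Frag-Seq replicate 1, 5 without Total RNA-Seq replicate 2, and 23 without either TT-Seq library.

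The interaction asks whether purification raised a unit more in sheared than in unsheared RNA. It was called positive in 34 units (8%) and negative in 14 (3.29%), against 8.75% and 25.8% of all tested units. The median log2 was 0.45, and without TMM scaling the interaction was called in 61 and 6. Among named units with good counts it was called at SDHAF4 (0.84 ± 0.31, edgeR adjusted p = 0.0464) and MXI1 (1.02 ± 0.35, edgeR adjusted p = 0.0342). Both were named for their high TT-Seq level, which enters the interaction, so these p-values are no independent support. The interaction was not called at NIPA2 (1.11 ± 0.48), NOP56 (0.40 ± 0.21), ZNF622 (0.01 ± 0.15), BCAR1 (-0.26 ± 0.30) or TP53BP2 (-0.38 ± 0.24). The 34 fell to 20 without Total RNA-Frag-Seq replicate 1 and 19 without Total RNA-Seq replicate 2. The 14 fell to between 6 and 8 without Total RNA-Frag-Seq replicate 2, Total RNA-Seq replicate 1 or either TT-Seq library.

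Over these units S2P ChIP, which marks Pol II elongating farther into genes, was more often lower than higher relative to N20. Of 483 units tested in ChIP, 177 were lower and 41 higher in S2P than in N20, against 18.6% lower and 22.3% higher of 20132 units. The median log2 ratio was -0.58 against -0.07 over all tested units. Lower calls made up 36.6% of the uaRNA units, against 37.1% of asRNA, 29.9% of conRNA and 26.6% of sincRNA units outside GENCODE. Medians of those 3 classes were -0.61, -0.53 and -0.50. ChIP carries no strand, so the unit's polymerase and that of the gene beside it cannot be told apart. Units overlapping a start had 52 of 86 lower and 0 higher (median -1.07), divergent units 21 lower and 3 higher of 86 (-0.57), and units inside an mRNA unit 37 lower and 26 higher of 122 (-0.16). At TTLL12 the log2 ratio was -1.92 ± 0.41, at AOPEP -1.86 ± 0.32 and at ZNF622, a zinc finger protein gene, -1.15 ± 0.29. These 3 are picked examples. Values above 0, none of them called, were 0.82 at FARSA, 0.42 at SDHAF4, 0.18 at BCAR1, 0.14 at LBR, 0.09 at NIPA2, 0.03 at KRCC1 and 0.02 at NCS1. With TMM scaling left out, the median over all units went from -0.07 to -0.70, and 306 were lower and 13 higher. The 177 became 97 and the 41 became 24 without N20 replicate 1, and 111 and 23 without N20 replicate 2.

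The partners within 1 kb were also counted by gene group. Over all groups, 130 units lay within 1 kb of one of the 4782 named mRNA units (2.72%). They included 7 of 191 named ZNF units (3.66%) and 0 of 28 ribosomal protein units, which are small counts. Among 35 named units of RNA decay and 3′ end factors, 2 were partners: CLP1, a cleavage factor subunit, and EXOSC2, an exosome cap subunit. The unit at CLP1 had 0.734 and 0.654 CPM in TT-Seq against 0.182 and 0.0395 in Total RNA-Frag-Seq, a log2 of 2.50 (edgeR adjusted p = 0.000158). Both Total RNA-Frag-Seq values were under 0.261 CPM, so the unit did not pass the low-count filter through that group. Its p-value is therefore no independent support. The unit at EXOSC2 was below the filter, with 0.176 and 0.327 against 0.0304 and 0.0395. The list held 57 factors, and those without a named unit were not assessed. The 35 units had 6.14 to 349 CPM in TT-Seq, the assay they were segmented from. Of the 35, 12 rose and 16 fell from Total RNA-Frag-Seq to TT-Seq, with a median log2 of -0.12, against 18% higher and 61.2% lower of all tested mRNA units. MTREX, the helicase that feeds the nuclear exosome, was the highest in level and change, with a log2 of 0.49.

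The authors' deposited table lists a decay rate for each unit, with no unit of measure stated in the sources used here. In the authors' deposited table the median decay rate was 0.174 over 521 of the units, 0.267 over the 99 divergent ones, 0.493 over eRNA units and 0.0448 over all units. Medians of conRNA, asRNA and sincRNA units outside GENCODE were 0.166, 0.162 and 0.175 in the authors' deposited table, close to that of the uaRNA units. The authors' deposited table gives the mRNA partners within 1 kb a median of 0.0135. The unit had the higher rate in 162 of 170 pairs in the authors' deposited table. There, 15 of the partners share a rate of 0.139, and without them it was 152 of 155. Across 425 tested units the authors' deposited decay rate followed the log2 change of TT-Seq over Total RNA-Frag-Seq (Spearman rho 0.94); both come from the same libraries, so this describes the rates and adds no support. Synthesis rates in the authors' deposited table were alike, with medians of 0.00551 for units within 1 kb and 0.00688 for their partners.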

How the data were processed

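RNA and Pol II ChIP of K562 cells were analysed from fragment counts that the authors deposited. The deposited counts are whole fragments in each of 15441419 genomic bins (200 bp), strand-specific only for RNA, and the authors derived 21874 units from TT-Seq with STAN, per the file headers and description. STAR 2.3.0, Bowtie2 2.1.0 and SAMtools with hg38 (GRCh38) are named per the submitters' processing notes, with no role stated. Multimapping, and so counts over near-identical copies, is not described in the sources used here.

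Deposited counts were summed over bins whose centre lies in a unit, on its strand. Units passing filterByExpr were scaled by TMM and tested with edgeR 4.0.16 (glmQLFit, robust, prior count 2 for log2 CPM) over 8 RNA or 4 ChIP libraries, with Benjamini-Hochberg adjustment at 0.05 over all units. Unit-to-partner ratios were tested with limma 3.58.1. DESeq2 1.42.0 was an alternative. CPM per kb divides by the length of the bins used. Partners took a RefSeq symbol where the mRNA unit covered 50% of a same-strand coding gene starting within 3 kb of its 5′ end. The tests were checked on simulated data. No replicates were identical beyond sampling noise (chi-square per degree of freedom at least 2.7). Named units are those near a named partner with the largest calls, levels, ratios or lengths. Members, position groups and lists were chosen with earlier results of these data known. Sequences come from RefSeq upstream windows in place of the planned first 1000 bases of units.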

Additional observations from a re-analysis of the deposited data

Results flagged for a closer look

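The effect of purification differed between sheared and unsheared RNA, by the edgeR interaction term, in 34 units in the direction of a larger effect in sheared RNA and in 14 units in the other direction, of 425 tested. The first is 8.0% of them, near the 8.75% of all tested units, and the second 3.29% against 25.8%. Among named units with a call the interaction log2 was 5.85 at ALG1, 5.52 at CYB5R3, 4.09 at MCAT, 3.64 at LBR, 1.02 at MXI1 and 0.84 at SDHAF4. At ALG1 and CYB5R3 all Total RNA-Frag-Seq counts were 0, so these fitted values depend on the model and are no measure of size. At MCAT and LBR that group held 1 count. MXI1 had 42 and 23 and SDHAF4 27 and 23 counts there. All these units were named for their TT-Seq level or change, which enters the interaction, so the values are no independent support.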

How the results depend on the processing

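Among the settings tried, those that moved a count by over 1.5 times were as follows. Without TMM scaling, which moved the median log2 of all units in TT-Seq over Total RNA-Frag-Seq from 0.09 to 0.44, there were 6 lower in that comparison, 4 lower in 4sU-Seq over Total RNA-Seq, 2 higher and 31 lower in Total RNA-Frag-Seq over Total RNA-Seq, interaction calls of 61 and 6, and ChIP calls of 13 and 306. With DESeq2 there were 186 higher in 4sU-Seq over Total RNA-Seq, 24 higher and 14 lower in TT-Seq over 4sU-Seq, 4 higher between the total groups, and interaction calls of 19 and 7. In the first 1000 bases there were 164 higher in 4sU-Seq over Total RNA-Seq, 105 higher in TT-Seq over 4sU-Seq, 0 and 0 between the total groups (edgeR, 364 tested), interaction calls of 15 and 2, and unit-to-partner calls of 199 and 14 in unsheared RNA. With the deposited counts per unit, which carry no unit names and were matched by row number, there were 10 lower in TT-Seq over Total RNA-Frag-Seq, 34 higher and 8 lower in TT-Seq over 4sU-Seq, 6 lower between the total groups and 5 negative interactions. With partners within 1 kb only, fewer pairs entered: 140 and 1 in sheared, 112 and 1 in unsheared RNA. The median log2 over all classes was then 1.33 and 0.86. Except for those fewer pairs, the cause was not tested.

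Leaving out 1 library at a time gave these ranges for higher and lower calls: 314 to 372 and 12 to 17 in TT-Seq over Total RNA-Frag-Seq, 175 to 296 and 5 to 14 in 4sU-Seq over Total RNA-Seq, 32 to 71 and 15 to 30 in TT-Seq over 4sU-Seq, 1 to 9 and 5 to 23 between the total groups, 19 to 46 and 6 to 15 for the interaction, 23 to 58 and 97 to 238 in ChIP, 333 to 374 and 9 to 10 for the sheared and 241 to 319 and 3 to 8 for the unsheared unit-to-partner ratio. A group left with 1 library was assumed to vary like the others.

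Same-numbered libraries deviated together only weakly (correlations 0.004 to 0.10), so the numbers were not taken as pairs. With the replicate number as a block the calls were 344 and 17, 283 and 8, 70 and 27, 8 and 16, 32 and 16, 45 and 181, 368 and 10, and 310 and 7, in the order above; every count stayed within 1.5 times. Depth limited the total RNA groups most.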
